A study of Mus musculus with 6 samples.

Results

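The TGF-beta receptors and Smads were read here as 10 genes chosen by name from a count table of 18368 genes: the ligand gene Tgfb1, the receptor genes Tgfbr1, Tgfbr2 and Eng, and the signal transducer genes Smad1, Smad2, Smad3, Smad4, Smad5 and Smad7. All 10 passed the filter on low counts that left 14443 genes for testing. Each library came from RNA of roughly 2000 haematopoietic stem cells (HSCs) sorted from the bone marrow of adult mice. There were 3 libraries from Ramp1 mutant mice, a genotype that the labels also write as Ramp-/-, and 3 from Ramp1+/+ mice, called wild type here. Ramp1 encodes a subunit of the receptor for the neuropeptide CGRP, and the title of the series concerns the control of stem cell mobilization by nociceptive nerves. No treatment is named for either group, and the labels do not state which part of Ramp1 the allele removes or whether each library came from a separate animal. The p-values therefore measure the spread between these libraries. By the Y-linked reads given below, replicate 1 of each genotype held male cells and replicates 2 and 3 did not. The spread thus includes a difference of sex between animals. Between replicates 2 and 3 of a genotype it may be technical.

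TGF-beta is a secreted cytokine kept in a latent form until it is activated. The active ligand binds the type II receptor Tgfbr2, which recruits and phosphorylates the type I receptor Tgfbr1. Tgfbr1 then phosphorylates Smad2 and Smad3, while the related BMP receptors act on Smad1 and Smad5. Phosphorylated Smads join the common partner Smad4 and enter the nucleus, and Smad7 inhibits the receptors as a feedback product of the pathway. In bone marrow the cytokine is known for holding HSCs in quiescence.

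Libraries held 22796771 to 26734561 counted reads. Ramp1 separated the genotypes, at 3.53, 2.65 and 1.35 FPKM in mutant libraries against 91.4, 88.3 and 91.0 FPKM in wild-type libraries, where FPKM is a read count adjusted for the length of the gene and the total of its library. Of all 14443 genes tested, 3 passed a Benjamini-Hochberg adjusted p of 0.05 in edgeR's quasi-likelihood test, which is 0.0208%. All 8 HSC markers examined were present, and their summed level was 1198 to 1506 FPKM in mutant libraries and 1162 to 1415 FPKM in wild-type libraries. Neutrophil markers differed widely within each genotype. Reads of 4 Y-linked genes numbered 6137 in mutant replicate 1 and 6527 in wild-type replicate 1, and at most 2 in any other library.

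Transcripts of the whole receptor-to-Smad chain were present in every library, and none of the 10 genes passed the adjusted threshold between genotypes. Smad4, the partner shared by both Smad branches, had the widest gap between genotypes, with a mean of 27.8 ± 20.6 FPKM in mutant cells and 66.2 ± 12.8 FPKM in wild-type cells (SD, n = 3 each). Smad2 was the steadiest, at 36.6 ± 1.28 FPKM in mutant cells and 36.7 ± 0.646 FPKM in wild-type cells. In edgeR's quasi-likelihood test 0 of 10 genes passed the adjusted threshold, and 1 of 10, Smad4, had an unadjusted p under 0.05, as did 3.99% of all genes tested. DESeq2, which called 0.265% of the genes it gave an adjusted p, also called 0 of the 10, as did limma on log2 FPKM. Of the 10 genes 6 had higher and 4 had lower fitted values in mutant cells, with a median log2 fold change of 0.05, or -0.024 without mutant replicate 1. Over all genes tested 7230 were higher and 7213 lower, with a median of 0.0003.

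**Figure D1:**
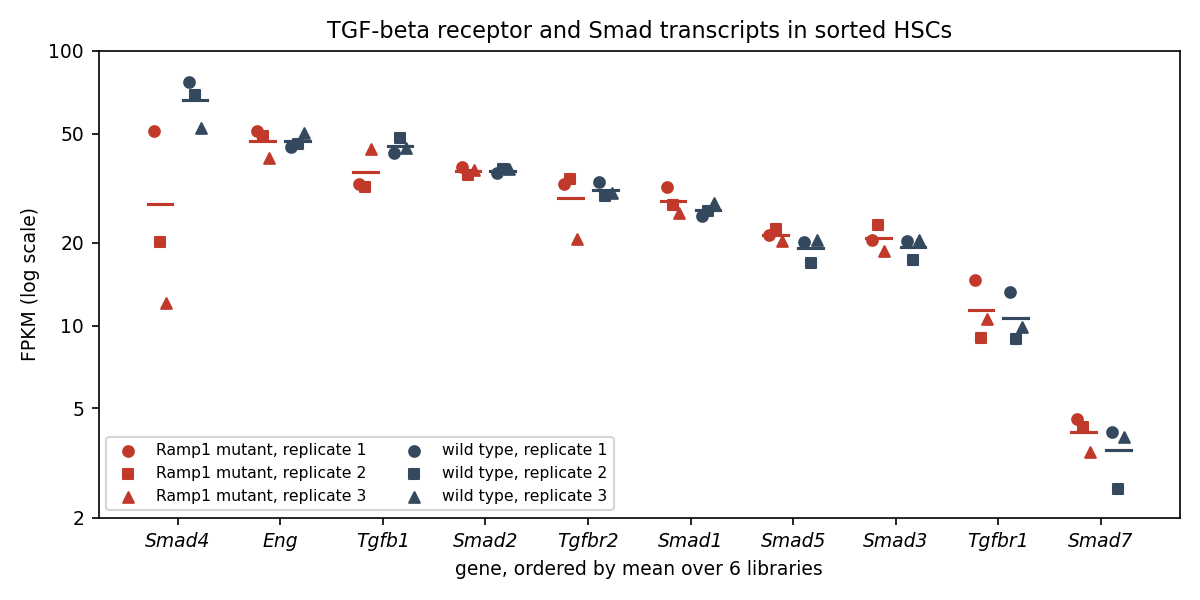
FPKM on a log scale for the 10 genes, ordered by their mean over 6 libraries, with each library as a point (red, Ramp1 mutant; dark blue, wild type; the shape gives the replicate) and each horizontal line the mean of 3 libraries. Smad4 spans 12.1 to 77.2 FPKM and Smad2 only 35.2 to 37.7 FPKM.

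FPKM is scaled by gene length, so the levels of different genes compare only as well as the deposited lengths hold. These were unequally short of the exon bases in the GENCODE M21 annotation. They were 2175 against 5042 for Tgfb1, 2857 against 8781 for Smad2 and 4785 against 8187 for Tgfbr2. For Smad4 they were 3384 against 3712 and for Eng 3572 against 4048. The order below uses the deposited lengths and changes with others. Scaled by the exon bases instead, the mean of Smad2 would fall below that of Tgfbr2. By the mean over 6 libraries the order was Smad4 (47.0 FPKM), Eng (46.9 FPKM), Tgfb1 (40.6 FPKM), Smad2 (36.6 FPKM), Tgfbr2 (30.2 FPKM), Smad1 (27.4 FPKM), Smad5 (20.3 FPKM), Smad3 (20.1 FPKM), Tgfbr1 (11.1 FPKM) and Smad7 (3.82 FPKM). Ranges over the 6 libraries did not overlap between Smad2 and Tgfbr2, Smad1 and Smad5, Smad3 and Tgfbr1, or Tgfbr1 and Smad7. The other neighbours in this order overlapped, and Smad4 led in 0 of 3 mutant libraries and in 3 of 3 wild-type libraries. In mutant replicate 1 its level of 51.1 FPKM lay just below the 51.2 FPKM of Eng.

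The ligand and its receptors come first. Tgfb1 (ENSMUSG00000002603, mm10 chromosome 7, 25687002 to 25705077) had 32.7, 31.9 and 44.0 FPKM in mutant libraries, against 42.4, 48.0 and 44.3 FPKM in wild-type libraries. Mutant replicates 1 and 2 were below all wild-type libraries and mutant replicate 3 was among them, so the groups overlapped. The log2 fold change was -0.31 (SE 0.15, 95% interval -0.66 to 0.04; edgeR quasi-likelihood test, unadjusted p = 0.0746, adjusted p = 0.999). Without mutant replicate 3 it was -0.49 (unadjusted p = 0.00443, adjusted p = 0.513), and without each of the other libraries in turn it was -0.35 to -0.22. Megakaryocytes and platelets are a known source of this cytokine, and the summed level of their 6 markers was 107 to 193 FPKM in mutant libraries and 142 to 192 FPKM in wild-type libraries. Gp6 was the marker of that list at 0 in every library, and of the 5 tested 1 had a higher and 4 had lower fitted values in mutant cells, with a median log2 fold change of -0.20. By library the marker sums were 193, 107 and 140 FPKM in mutant and 183, 192 and 142 FPKM in wild-type libraries. The part of these cells in the Tgfb1 level was not tested.

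Tgfbr2, the ligand-binding type II receptor (ENSMUSG00000032440, chromosome 9, 116087698 to 116175363), had 32.9, 34.2 and 20.6 FPKM in mutant libraries and 33.3, 29.7 and 30.4 FPKM in wild-type libraries. Mutant replicate 3 was the lowest library and mutant replicate 2 the highest. Its log2 fold change was -0.09 (SE 0.18, 95% interval -0.51 to 0.33), and it was 0.10 without mutant replicate 3. Tgfbr1, the type I receptor kinase (ENSMUSG00000007613, chromosome 4, 47353222 to 47414931), had 14.7, 9.02 and 10.6 FPKM in mutant libraries and 13.3, 8.97 and 9.87 FPKM in wild-type libraries. Replicate 1 was the highest library in both genotypes. The log2 fold change was 0.09 (SE 0.20, 95% interval -0.38 to 0.57), and it was -0.10 without mutant replicate 1.

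The type II receptor transcript exceeded that of the type I receptor in all 6 libraries. The ratio of Tgfbr2 to Tgfbr1 FPKM was 2.24, 3.79 and 1.94 in mutant libraries and 2.51, 3.31 and 3.08 in wild-type libraries, a mean of 2.66 ± 0.992 in mutant and 2.97 ± 0.412 in wild-type cells (SD, n = 3 each). Eng encodes endoglin, an accessory receptor of the family that is also a surface marker of HSCs and of endothelium (ENSMUSG00000026814, chromosome 2, 32646595 to 32682669). It had 51.2, 49.0 and 40.8 FPKM in mutant libraries and 44.6, 45.8 and 50.2 FPKM in wild-type libraries. The groups overlapped throughout, with a log2 fold change of 0.0045 (SE 0.11, 95% interval -0.24 to 0.25). Summed over 6 endothelial markers the level was 34.7 to 39.7 FPKM in mutant libraries and 35.6 to 49.2 FPKM in wild-type libraries. Over the 6 libraries Pecam1 averaged 15.9 FPKM, Emcn 13.3 FPKM, Plvap 6.25 FPKM, Kdr 2.36 FPKM, Stab2 0.825 FPKM and Cdh5 0.290 FPKM, and none was at 0 in every library. Of these 6 markers 1 had a higher and 5 had lower fitted values in mutant cells, with a median log2 fold change of -0.51, and Kdr had an unadjusted p of 0.0334 in edgeR (adjusted p = 0.999). Their part in the Eng level was not tested. Of the exon bases of Eng, 61 of 4048 also belong to Fpgs on the other strand in GENCODE M21, and no source used here states whether counting used strand.

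The proximal promoters of the ligand and of its receptor pair are shown because these genes open the chain. Each run is the 250 bases before the annotated start, 5′ to 3′ on the gene's strand, from RefSeq on GRCm38.p6, the same assembly as mm10. Capitals mark GC boxes (GGGCGG), SMAD boxes (GTCT) and BMP-type SMAD sites (GGCGCC), each searched on both strands, and where matches overlap the capitals run together.
Tgfb1 (chr7:25686752-25687001, plus strand): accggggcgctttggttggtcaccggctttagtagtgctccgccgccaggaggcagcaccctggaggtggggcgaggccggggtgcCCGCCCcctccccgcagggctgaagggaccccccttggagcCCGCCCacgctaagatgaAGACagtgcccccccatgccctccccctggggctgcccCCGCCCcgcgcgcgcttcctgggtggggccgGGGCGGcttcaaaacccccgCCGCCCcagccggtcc
Tgfbr1 (chr4:47352972-47353221, plus strand): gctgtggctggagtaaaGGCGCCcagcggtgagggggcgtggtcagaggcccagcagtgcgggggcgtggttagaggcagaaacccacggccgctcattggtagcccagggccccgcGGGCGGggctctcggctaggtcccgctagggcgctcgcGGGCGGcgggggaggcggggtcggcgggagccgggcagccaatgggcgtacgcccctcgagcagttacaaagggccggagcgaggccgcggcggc
Tgfbr2 (chr9:116175364-116175613, minus strand): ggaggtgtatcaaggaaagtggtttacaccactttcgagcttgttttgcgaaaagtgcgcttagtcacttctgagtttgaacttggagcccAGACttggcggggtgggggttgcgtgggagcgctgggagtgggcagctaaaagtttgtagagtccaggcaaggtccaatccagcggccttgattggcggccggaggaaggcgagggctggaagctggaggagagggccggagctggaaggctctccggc
The Tgfb1 window held 5 GC boxes and 1 SMAD box at 75.2% G plus C. The Tgfbr1 window held 2 GC boxes, 1 BMP-type site and no SMAD box at 74.8%, and the Tgfbr2 window held 1 SMAD box alone at 58.4%. Of 32851 promoter windows of this length 32.7% held a GC box, 82.9% a SMAD box and 9.59% a BMP-type site, and their median G plus C was 52.4%. The palindrome GTCTAGAC, held by 0.167% of windows, was in none of the 3. A match is a stretch of letters and not a measured binding site.

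The receptor Smads of both branches were present at similar levels. Smad2 (ENSMUSG00000024563, chromosome 18, 76241580 to 76305731), a TGF-beta branch transducer, had 37.7, 35.2 and 36.9 FPKM in mutant libraries and 35.9, 37.0 and 37.0 FPKM in wild-type libraries. Only 5 of the 14443 genes tested had a narrower range of log2 counts scaled by library size over the 6 libraries. The log2 fold change was -0.0009 with a 95% interval of -0.20 to 0.20, which covers folds of 0.868 to 1.15.

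Smad3, the other TGF-beta branch transducer (ENSMUSG00000032402, chromosome 9, 63646767 to 63757994), had 20.5, 23.3 and 18.8 FPKM in mutant libraries and 20.3, 17.3 and 20.5 FPKM in wild-type libraries. Its log2 fold change was 0.11 (SE 0.12, 95% interval -0.16 to 0.39). The 2 BMP branch transducers had slightly higher means in mutant cells, within the spread of the libraries. Smad1 (ENSMUSG00000031681, chromosome 8, 79338395 to 79399518) had 32.0, 27.6 and 25.7 FPKM in mutant libraries and 25.1, 26.2 and 27.9 FPKM in wild-type libraries, a log2 fold change of 0.11 (SE 0.11, 95% interval -0.14 to 0.36). Smad5 (ENSMUSG00000021540, chromosome 13, 56703010 to 56742377) had 21.4, 22.4 and 20.3 FPKM in mutant libraries and 20.1, 16.9 and 20.5 FPKM in wild-type libraries, a log2 fold change of 0.16 (SE 0.10, 95% interval -0.07 to 0.39). A small RNA, Gm27301, shares 100 of the 7420 exon bases of Smad5 on the same strand.

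Taken as a sum, the 4 receptor Smads were steady, at 112, 109 and 102 FPKM in mutant libraries and 101, 97.4 and 106 FPKM in wild-type libraries. The balance between branches, Smad2 plus Smad3 over Smad1 plus Smad5, was 1.09, 1.17 and 1.21 in mutant libraries and 1.24, 1.26 and 1.19 in wild-type libraries. By these values the TGF-beta branch exceeded the BMP branch in every library, and the genotypes overlapped. That order rests on the deposited gene lengths. Scaling by the GENCODE M21 exon bases given here instead would put the BMP branch above the TGF-beta branch in every library. Smad2 was scaled by 2857 bases, while its exons in GENCODE M21 cover 8781 bases. The lengths used for Smad1, Smad3 and Smad5 were 3775, 5090 and 6584 bases, against 6262, 5542 and 7420 exon bases.

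Smad7, the inhibitory Smad (ENSMUSG00000025880, chromosome 18, 75367529 to 75395935), was the least abundant of the 10, with 369 to 488 reads in mutant libraries and 271 to 445 reads in wild-type libraries. Its level was 4.56, 4.27 and 3.48 FPKM in mutant libraries and 4.10, 2.55 and 3.94 FPKM in wild-type libraries. Wild-type replicate 2 was the lowest and mutant replicate 1 the highest, and the remaining libraries overlapped. The log2 fold change was 0.22 (SE 0.22, 95% interval -0.30 to 0.74), and it was 0.047 without wild-type replicate 2 and 0.34 without wild-type replicate 1. Relative to the summed Smad2 and Smad3 it had a ratio of 0.0783, 0.0729 and 0.0625 in mutant libraries and 0.0730, 0.0469 and 0.0685 in wild-type libraries.

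**Figure D2:**
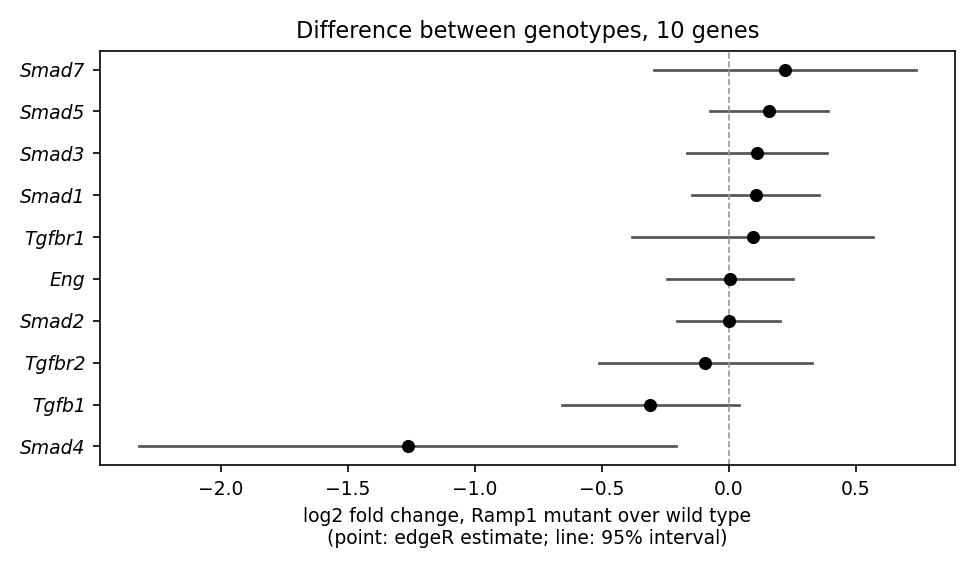
edgeR log2 fold change of each of the 10 genes, Ramp1 mutant over wild type, as a point with its 95% interval as a line; the dashed line marks no difference. Smad4 lies at -1.26 with the widest interval, -2.32 to -0.21, and the intervals of the other 9 genes include 0.

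Smad4 stood apart from the other Smads in its spread, although 8.11% of all genes tested had a wider log2 range over the 6 libraries. The gene (ENSMUSG00000024515, protein-coding, chromosome 18, 73639009 to 73703780) had 3945, 1821 and 1018 reads in mutant libraries, against 6628, 5831 and 4129 reads in wild-type libraries. The level was 51.1, 20.1 and 12.1 FPKM in mutant libraries and 77.2, 69.2 and 52.2 FPKM in wild-type libraries. All mutant libraries lay below all wild-type ones, although mutant replicate 1 came within about 1 FPKM of wild-type replicate 3. Smad4 was the 1 gene of the 10 whose groups did not overlap, as was the case for 10.3% of all genes tested. The log2 fold change was -1.26 (SE 0.46, 95% interval -2.32 to -0.21; edgeR quasi-likelihood test, unadjusted p = 0.0249, adjusted p = 0.999), which is a fold of 0.416. For the FPKM values a two-sided exact permutation test gave p = 0.1, the smallest that 3 against 3 libraries allow. In the authors' deposited table Smad4 has a log2 fold change of -1.27, a p-value of 0.0411 and an adjusted p-value of 0.9998.

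The mutant libraries differed among themselves in Smad4. The highest mutant level of Smad4 was 4.22 times the lowest, and the highest wild-type level was 1.48 times the lowest. Its SD was 74.1% of the mean in mutant cells against 19.3% in wild type. For the other 9 genes this share was 3.50% to 25.7% in mutant cells and 1.76% to 24.3% in wild type. The 95% Poisson interval was 11.4 to 12.9 FPKM in mutant replicate 3 and 49.6 to 52.8 FPKM in mutant replicate 1. These intervals cover counting error only and say nothing of the spread between libraries. Without mutant replicate 1 the log2 fold change was -2.02 (edgeR adjusted p = 0.156), and without mutant replicate 3 it was -0.92 (adjusted p = 0.647). With replicate 1 of both genotypes left out it was -1.91 (adjusted p = 0.591). Over all alternatives run it stayed between -2.02 and -0.92, with adjusted p at or above 0.156.

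The share of Smad4 relative to the 4 receptor Smads carried the same spread, since their sum was steady. Smad4 divided by that sum was 0.458, 0.185 and 0.119 in mutant libraries and 0.762, 0.711 and 0.493 in wild-type libraries. The mean was 0.254 ± 0.179 in mutant and 0.655 ± 0.143 in wild-type cells (SD, n = 3 each).

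The summed level of neutrophil markers ran opposite to Smad4 within each genotype, while single markers varied. Summed over 8 markers, with 0 of them at 0 in every library, the level was 171, 810 and 1068 FPKM in mutant libraries and 34.5, 309 and 765 FPKM in wild-type libraries. S100a8 and S100a9 made up most of the sum in every library. In both genotypes the library with the highest sum had the least Smad4. Elane and Mpo did not follow the sum: Elane had 0, 30.5 and 0.350 FPKM in mutant libraries and 0.815, 26.5 and 0.140 FPKM in wild-type libraries, and both genes were highest in replicate 2 of each genotype. Mmp8 was lower in mutant replicate 2, at 1.62 FPKM, than in mutant replicate 1, at 3.52 FPKM. Of the 8 markers 7 had higher and 1 had a lower fitted value in mutant cells, with a median log2 fold change of 0.45. Mutant replicate 2, with a sum of 810 FPKM, had Smad4 at 20.1 FPKM. Wild-type replicate 3, with a sum of 765 FPKM, had Smad4 at 52.2 FPKM. Those libraries were alike in the sum but not in single markers. Ngp had 59.8 FPKM in that mutant library and 128 FPKM in that wild-type library, and Elane 30.5 and 0.140 FPKM. The part of these cells in the Smad4 level was not tested, and in RNA of bulk samples fewer cells of a type and less RNA per cell cannot be told apart.

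The tested genes whose profile over the 6 libraries was most like that of Smad4 were Sppl3, Gna12 and Marveld1, out of 8333 protein-coding candidates with at least 5 FPKM. Likeness was the mean absolute difference of log2 counts scaled by library size, each gene centred on its mean, and it was 0.14, 0.16 and 0.16. Sppl3, an intramembrane protease gene on chromosome 5, had 29.2, 14.3 and 7.07 FPKM in mutant libraries and 44.5, 40.2 and 37.7 FPKM in wild-type libraries. Gna12, which encodes a G protein alpha subunit and also lies on chromosome 5, had 22.1, 7.27 and 6.67 FPKM in mutant libraries and 38.0, 34.8 and 23.5 FPKM in wild-type libraries. Marveld1, a MARVEL-domain membrane protein gene on chromosome 19, had 24.6, 12.0 and 7.77 FPKM in mutant libraries and 37.4, 34.1 and 30.4 FPKM in wild-type libraries. The order of their libraries follows from how they were chosen, and none passed the adjusted threshold (edgeR, adjusted p = 0.999 for each).

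The nearest tested genes on each side of Smad4 on chromosome 18 were read as well, a choice made after the values of Smad4 were seen. Mex3c, an RNA-binding ubiquitin ligase gene that starts at 73573044, had 22.0, 10.8 and 8.68 FPKM in mutant libraries and 29.8, 24.2 and 24.1 FPKM in wild-type libraries, again with no overlap between groups (log2 fold change -0.92, SE 0.31; edgeR adjusted p = 0.999). Mbd2, which encodes a reader of methylated DNA, lies farther off at 70568189 to 70626131. It had 7.59, 3.72 and 6.56 FPKM in mutant libraries and 44.9, 39.6 and 8.35 FPKM in wild-type libraries. Its log2 fold change was -2.39 (SE 0.58, edgeR adjusted p = 0.986). The groups of Mbd2 did not overlap either, with wild-type replicate 3 close to the mutant libraries. Of all genes tested, 4.32% had all mutant libraries below all wild-type ones. On the other side, Elac1, a tRNA-processing enzyme gene, differed by 0.04 (SE 0.12) on the log2 scale and the malic enzyme gene Me2 by -0.0040 (SE 0.14). No other gene shares exon bases with Smad4 in GENCODE M21, whose coordinates for it equal those of the deposited table.

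**Figure D3:**
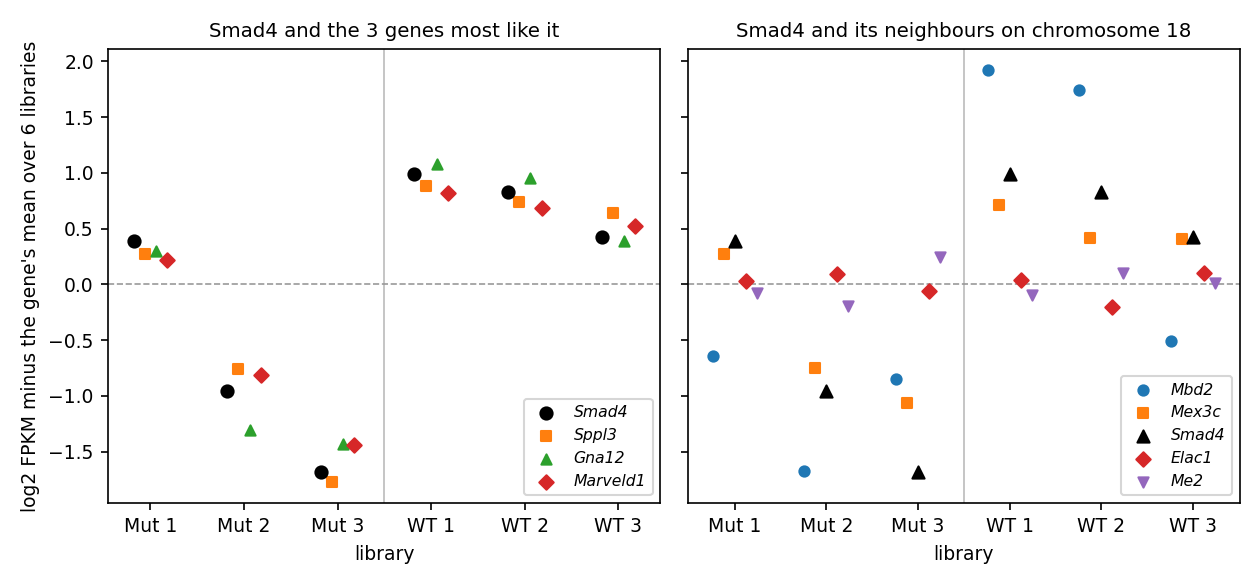
Log2 FPKM in each library minus the gene's mean over the 6 libraries, for Smad4 with the 3 genes most like it (left panel) and with 2 tested neighbours on each side on chromosome 18 (right panel); each point is 1 library, mutant left of wild type. The genes of the left panel were chosen for their likeness to Smad4. In the right panel all mutant points of Mbd2 and Mex3c lie below all wild-type points, as for 4.32% of all genes tested. Those of Elac1 and Me2 overlap.

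Around these 10 genes, 8 lists of other pathway genes were read. Together they hold 85 genes, of which 67 were tested and 0 passed the adjusted threshold in edgeR, DESeq2 or limma. Of the 67, 38 had higher and 29 lower fitted values in mutant cells, with a median log2 fold change of 0.06. In edgeR 4 of the 67 had an unadjusted p under 0.05, as did 3.99% of all genes tested. These 4 were Furin, Tsc22d1, Id2 and Hes1. Groups did not overlap for 7 of them, 6 with all mutant libraries higher and 1 with all lower, where the share over all genes tested was 5.99% higher and 4.32% lower. The higher ones were Id2, Hes1, Tsc22d1, Zeb2, Usp4 and Pmepa1 and the lower one was Furin; Hes1 and Pmepa1 are named here after their values were seen.

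Other ligands of the family were scarce. Only 8 of 16 were tested, 6 with higher and 2 with lower values, and their median log2 fold change was 0.06. The most abundant was Tgfb3, another TGF-beta isoform, at 2.81, 2.60 and 1.74 FPKM in mutant libraries and 1.70, 1.37 and 3.01 FPKM in wild-type libraries. Bmp4, a bone morphogenetic protein, averaged 2.08 FPKM in mutant cells and 2.02 FPKM in wild-type cells. Inha and Inhba, inhibin and activin subunits, averaged 1.52 and 1.41 FPKM in mutant cells and 1.80 and 1.09 FPKM in wild-type cells. Bmp5, Bmp10, Gdf2 and Mstn were listed at 0 in every library.

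Genes that store or activate latent TGF-beta included abundant members. Nrros, which anchors latent TGF-beta on myeloid cells, had 64.1, 68.9 and 73.7 FPKM in mutant libraries and 71.4, 77.7 and 77.4 FPKM in wild-type libraries (log2 fold change -0.13, SE 0.10). Ltbp3, a latent TGF-beta binding protein gene, averaged 28.7 FPKM in mutant cells and 25.3 FPKM in wild-type cells. Furin, the protease that cleaves the TGF-beta precursor, had 12.1, 9.17 and 4.94 FPKM in mutant libraries and 17.6, 13.3 and 14.5 FPKM in wild-type libraries. All mutant libraries were below all wild-type ones, with a log2 fold change of -0.80 (SE 0.28; edgeR unadjusted p = 0.0236, adjusted p = 0.999). Thbs1, the activator thrombospondin, had 1.04, 50.2 and 4.77 FPKM in mutant libraries and 0.890, 4.38 and 10.1 FPKM in wild-type libraries, so that its log2 fold change of 1.89 (SE 1.29) was -0.80 without mutant replicate 2. Of the 9 tested genes of this list 4 had higher and 5 lower values, with a median of -0.13. With limma at pseudocounts of 1 and 0.1 the median was 0.17 and 0.18. In those 2 fits a filter at a mean of 0.5 FPKM left out Ltbp1 and Itgb6, which had log2 fold changes of -0.41 and -0.62 in edgeR. In the other 15 alternatives the median was -0.19 to -0.0021.

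Among other receptors, Tgfbr3, the co-receptor betaglycan, was the most abundant, at 26.2, 13.3 and 13.0 FPKM in mutant libraries and 24.1, 15.3 and 13.9 FPKM in wild-type libraries. As for Tgfbr1, replicate 1 was the highest in both genotypes. The activin type II receptors Acvr2a and Acvr2b averaged 4.35 and 4.83 FPKM in mutant cells and 4.20 and 5.60 FPKM in wild-type cells. Rgmb, a BMP co-receptor, averaged 4.66 FPKM in mutant cells and 3.47 FPKM in wild-type cells. The BMP type I receptor Bmpr1b was listed at 0 in every library. Of 11 tested genes of this list 5 had higher and 6 lower values, and the median was -0.02 on the log2 scale, or -0.17 without mutant replicate 1 and 0.14 without mutant replicate 3.

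Nuclear partners and regulators of the Smads had fitted differences in both directions, and none passed the test. Log2 fold changes ran from -0.10 to 0.34 (Skil) over the tested partners and from -0.65 (Ldlrad4) to 0.63 (Pmepa1) over the tested ubiquitin and phosphatase regulators, and these 3 genes are named after their values were seen. Tgif1, a co-repressor, averaged 21.5 FPKM in mutant cells and 22.9 FPKM in wild-type cells, and the coactivators Ep300 and Crebbp had log2 fold changes of 0.08 (SE 0.12) and -0.10 (SE 0.10). Zeb2, a Smad-binding repressor, had 8.01, 7.06 and 7.85 FPKM in mutant libraries and 6.44, 6.21 and 6.89 FPKM in wild-type libraries, above wild type in each mutant library (log2 fold change 0.23, SE 0.10; edgeR adjusted p = 0.999). The deubiquitinase gene Usp4 was likewise above wild type in each mutant library, at 63.9, 67.5 and 66.9 FPKM in mutant and 61.9, 60.2 and 62.2 FPKM in wild-type libraries (log2 fold change 0.11, SE 0.08). Fkbp1a, which binds and restrains the type I receptor, the receptor-binding adaptor gene Strap and the deubiquitinase gene Usp15 had log2 fold changes of 0.06, -0.06 and 0.02. Medians were 0.0095 over 10 tested partners, or 0.16 without wild-type replicate 3, and -0.07 over 13 tested ubiquitin and phosphatase regulators. In the branch through the kinase TAK1, Map3k7, Tab1, Tab2 and Traf6 had log2 fold changes of 0.09, -0.32, 0.06 and 0.17, with a median of 0.09 over 5 genes.

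Response genes of the TGF-beta branch mostly had higher fitted values in mutant cells, and none passed the test. Of 10 tested TGF-beta response genes 8 had higher and 2 lower values in mutant cells, and the median of their log2 fold changes was 0.26. Klf10, a TGF-beta induced zinc finger gene, had 86.5, 104 and 104 FPKM in mutant libraries and 92.8, 93.3 and 79.9 FPKM in wild-type libraries. Tsc22d1, a TGF-beta stimulated gene, had 39.6, 43.3 and 39.2 FPKM in mutant libraries and 28.1, 29.7 and 37.0 FPKM in wild-type libraries, with no overlap (log2 fold change 0.37, SE 0.12; edgeR unadjusted p = 0.0163, adjusted p = 0.999). Cdkn1c, which encodes the cell cycle inhibitor p57 of quiescent HSCs, had 31.8, 24.9 and 23.5 FPKM in mutant libraries and 23.4, 23.8 and 23.2 FPKM in wild-type libraries. Mutant replicate 1 alone stood out, and the log2 fold change was 0.18 (SE 0.13).

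Of 7 tested BMP response genes 3 had higher and 4 lower values, and their median on the log2 scale was -0.02, or 0.37 without mutant replicate 1 and 0.61 without wild-type replicate 2. Id2, an inhibitor of basic helix-loop-helix factors, had 18.9, 12.6 and 14.1 FPKM in mutant libraries, against 8.94, 8.10 and 5.46 FPKM in wild-type libraries. All mutant libraries were above all wild-type ones. Its log2 fold change was 1.01 (SE 0.25; edgeR unadjusted p = 0.00412, adjusted p = 0.999), and its DESeq2 adjusted p was 0.0683. Id1, a related inhibitor, had 1.70, 2.64 and 5.94 FPKM in mutant libraries and 2.21, 1.98 and 2.40 FPKM in wild-type libraries, and its log2 fold change of 0.65 (SE 0.49) was -0.02 without mutant replicate 3. Hes1, a transcriptional repressor also induced by Notch, had 1.52, 5.61 and 4.01 FPKM in mutant libraries and 0.618, 1.37 and 1.31 FPKM in wild-type libraries (log2 fold change 1.76, SE 0.55; edgeR unadjusted p = 0.0134, adjusted p = 0.999). The inhibitory Smad gene Smad6 averaged 3.57 FPKM in mutant cells and 3.75 FPKM in wild-type cells. Gata2, a stem cell transcription factor, averaged 129 FPKM in mutant cells and 131 FPKM in wild-type cells.

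**Figure D4:**
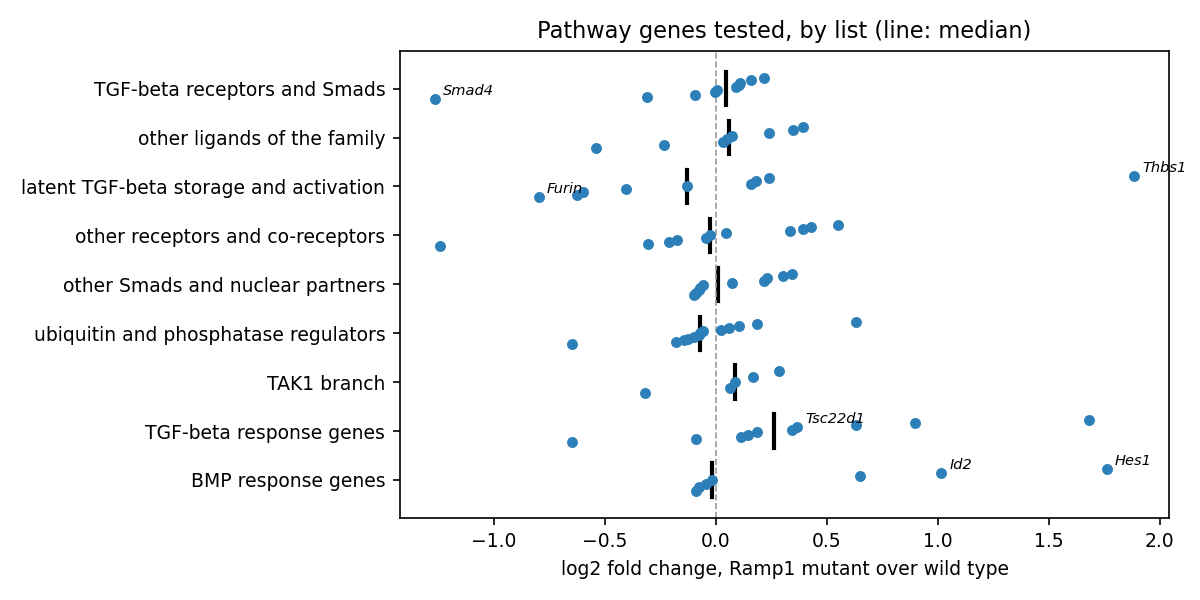
edgeR log2 fold change, Ramp1 mutant over wild type, of every tested gene in the set of 10 and in 8 lists of other pathway genes; each point is 1 gene and each short vertical line the median of its list. The medians lie between -0.13 and 0.26, and 0 of the genes passed the adjusted threshold.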

How the data were processed

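Per the submitters' processing notes, CASAVA, STAR, HTSeq 0.6.1, DESeq2 and the build mm10 were used, with no role or order given. The authors deposited raw read counts per gene, FPKM (scaled by gene length and library total), counts divided by size factors (a signal, left unused), their own log2 fold changes with p-values, and gene length (entered as a score). FPKM recomputed from the deposited counts differed by at most a share of 0.000204 for the 10 genes. The annotation release and strand setting are not given in the sources used here.

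Counts were tested with edgeR 4.0.16 in R 4.3.3 (TMM, filterByExpr, quasi-likelihood F test, two-sided, Benjamini-Hochberg adjustment over 14443 genes). Standard errors are log2 fold changes over the square root of F. Alternatives used DESeq2 1.42.0 and limma 3.58.1 on log2(FPKM + 1) or log2(FPKM + 0.1), other scalings and filters, covariates, and each library left out. Totals of 22796771 to 26734561 reads per library set the counting precision, and libraries of 1 genotype differed by more than counting noise.

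Genes and lists were chosen with earlier results of these data known. The text names the 10 genes, the 4 most abundant tested genes of each pathway list, and the 3 genes nearest to the most variable of the 10, among protein-coding genes with at least 5 FPKM and no clone-based name. Promoter windows came from RefSeq: 7 of the 10 genes had an entry and 6 matched the annotated start. Sequences of the others are not used here.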

Additional observations from a re-analysis of the deposited data

How the results depend on the processing

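In all 17 alternatives 0 of the 10 genes and 0 of the other pathway genes passed the adjusted threshold. The count over all genes, 3 in the edgeR fit, was 44 with DESeq2 and 2 to 6 with each library left out in turn, the 6 without mutant replicate 2. Of 170 refitted values of the 10 genes 155 kept their direction. Smad3, Smad4, Smad5, Smad7 and Tgfb1 kept it in every alternative. Reversed values were small: Smad1 had -0.012 with both replicates 1 left out, Smad2 had 0.0077 with upper quartile scaling, and Eng had -0.0014 with DESeq2, -0.0010 and -0.0011 with limma at pseudocounts of 1 and 0.1, -0.0010 with limma unfiltered and -0.085 with both replicates 1 left out. With single libraries left out, Eng ranged from -0.043 to 0.086, Smad2 from -0.023 to 0.027, Tgfbr1 from -0.10 to 0.27 and Tgfbr2 from -0.23 to 0.10. Tgfb1 ranged from -0.49 to -0.22, Smad7 from 0.047 to 0.34, Smad3 from 0.018 to 0.17, Smad1 from 0.032 to 0.16 and Smad5 from 0.095 to 0.20.

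Among the other named genes 28 of 527 refitted values reversed. With both replicates 1 left out Acvr2a had -0.14, Ep300 -0.0029 and Map3k7 -0.042. With limma at a pseudocount of 0.1 Bmp4 had -0.0025 and Inhba -0.038. Leaving out single libraries gave ranges of Bmp4 -0.26 to 0.27, Inhba -0.85 to 0.78, Thbs1 -0.80 to 2.81, Acvr2a -0.17 to 0.16, Tgfbr3 -0.41 to 0.25, Tgif1 -0.20 to 0.0077, Usp15 -0.011 to 0.053, Fkbp1a -0.046 to 0.12, Strap -0.11 to 0.026, Map3k7 -0.028 to 0.16, Tab2 -0.077 to 0.17, Id1 -0.016 to 0.99, Smad6 -0.24 to 0.057 and Gata2 -0.10 to 0.034.

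Deviations from the group means correlated between genotypes at 0.138, 0.002 and -0.094 for replicate numbers 1, 2 and 3. For libraries of unlike number they correlated at -0.133 to 0.146. The numbers thus showed no pairing beyond that range, although replicate 1 was alike in Y-linked reads in both genotypes. With the replicate number as a block 2 genes passed in all and 0 of the 10, Smad4 had a log2 fold change of -1.49 (adjusted p = 0.990), and Inhba had -0.076. A covariate for replicate 1, the library with Y-linked reads in both genotypes, gave Smad4 -1.48 (adjusted p = 0.681). List medians moved by more than the spread between libraries in 10 of 153 refits. Besides the shifts given with the medians, the TGF-beta response genes had 0.17 and 0.16 with limma at a pseudocount of 1, filtered and unfiltered. A depth of 271 to 488 reads limits Smad7, and scarce ligands and receptors more so. The causes of these shifts were not tested.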

Other observations

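Markers of other blood and marrow cells were also present. Summed over 6 markers each, stromal genes reached 5.61 to 20.4 FPKM in mutant libraries and 7.45 to 15.6 FPKM in wild-type libraries, and macrophage and monocyte genes 9.48 to 32.3 FPKM in mutant and 24.4 to 29.9 FPKM in wild-type libraries. Erythroid genes, led by Hba-a1, had sums of 126, 33.9 and 39.7 FPKM in mutant libraries and 49.9, 29.5 and 10.1 FPKM in wild-type libraries. B cell genes reached 34.8 to 48.5 FPKM in mutant and 37.8 to 42.5 FPKM in wild-type libraries, with Pax5 at 0 throughout. T and NK cell genes reached 33.3 to 56.6 FPKM in mutant and 44.4 to 71.4 FPKM in wild-type libraries, with Cd8a at 0 throughout. Their part in the levels of the TGF-beta receptors and Smads was not tested.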
